A study of Mus musculus with 6 samples.

Results

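Enzymes that use arginine to make urea, ornithine, polyamines and nitric oxide were described on 6 microarrays of tissue from female BALB/c mice. The set was a list of 10 genes (Arg1, Arg2, Ass1, Asl, Odc1, Oat, Sat1, Nos1, Nos2 and Nos3), matched to the gene symbols of the array's annotation without regard to case. Of the 10 genes, 5 had a named probe and were measured here, out of 17742 named genes in all. These were Arg1, Arg2, Asl, Oat, each with 1 probe, and Sat1 with 2. Ass1, Odc1, Nos1, Nos2 and Nos3 were not analysed here. The genes were chosen by function, with the intensities and the differences between SHT and mock on these same arrays in view, so their values are given as a description and none of them was tested.

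Per the labels, brain, ovary and uterus were each taken from untreated mice (mock) and from treated ones. Treatment was SHT, or Sheng-Hua-Tang, a traditional herbal decoction, taken orally for 7 days at 200 mg/kg. There was 1 array for each of the 6 groups. No difference could therefore be checked against a replicate, and the small number of arrays limits how precise any value is. All groups shared sex and strain. The labels gave no age and did not say whether RNA of several mice was pooled or whether the same mice gave all 3 tissues. Because each array measured bulk tissue, fewer cells of a type and less RNA per cell cannot be told apart.

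Arginase splits arginine into urea and ornithine, and argininosuccinate lyase makes arginine from argininosuccinate. Ornithine feeds the polyamines, small positively charged molecules needed by dividing cells, or passes through ornithine aminotransferase toward glutamate and proline. Nitric oxide synthases compete with arginase for the same arginine. In the reproductive tract, polyamine and nitric oxide synthesis are known for their part in the preparation of the uterus for pregnancy, and in the brain nitric oxide is a neuronal messenger.

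The tissue labels did not match the marker genes on 4 of the 6 arrays. Scored on marker lists for brain, ovary and uterus, the arrays labelled as mock brain and SHT ovary were nearest to brain, those labelled as SHT brain and mock uterus to ovary, and those labelled as mock ovary and SHT uterus to uterus. The 3 most alike of the 15 pairs of arrays were these same pairs, with Pearson correlations of 0.996, 0.981 and 0.972 over all probes, which are not independent replicates. Only these 3 tissues were scored, so nearest does not mean that an array held that tissue alone. The arrays labelled as mock ovary and SHT uterus also had bright markers of stratified epithelium, summing to 326374 and 221570. Within that list Lor read 55805 and 522 on them, and Krt5 36716 and 29948. Array medians lay between 179 and 224. On each array the 95th percentile of 529 olfactory receptor genes, a family silent in most tissues, was taken as the upper edge of the background and lay between 275 and 541. No array was moved to another group, and every array is named below by its label alone. Without the 4 arrays that went against their labels no pair with a shared tissue label remained, so no labelled difference could be given without them.

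Arg1, the arginase of the cytosol best known from the urea cycle in liver, had the widest range of the 5 genes. Its intensity was 32.8 on the array labelled as mock brain, 31920 on SHT brain, 39175 on mock ovary, 34.6 on SHT ovary, 456 on mock uterus and 40356 on SHT uterus. The gene was thus bright on 3 arrays, whose values lay close together, inside the background on 2, and a little above it on the array labelled as mock uterus. On the 3 bright arrays its probe stood at the 99.8th percentile of all probes, and on the array labelled as mock uterus at the 61.4th.

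**Figure D1:**
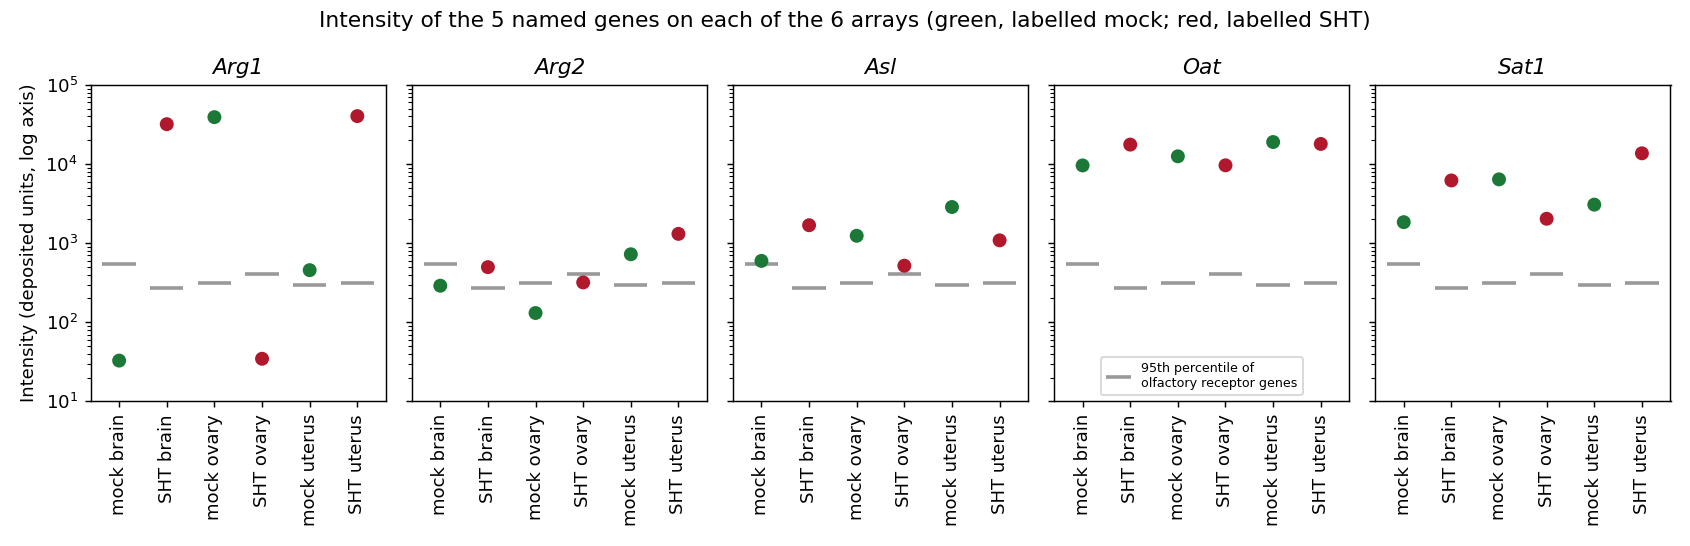
Intensity of Arg1, Arg2, Asl, Oat and Sat1 (the brighter Sat1 probe) on each of the 6 arrays, on a log axis in the deposited units, with 1 point per array, green for arrays labelled as mock and red for arrays labelled as SHT. Grey bars mark the background edge of each array, set on the olfactory receptor genes; Arg1 lies below it at 32.8 and 34.6 on the arrays labelled as mock brain and SHT ovary and reaches 31920 to 40356 on 3 others, while Oat stays between 9607 and 18984.

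Arg1 did not follow the division of the arrays by tissue markers. The arrays labelled as SHT brain and mock uterus, both nearest to ovary, had 31920 and 456, and relative to the median gene Arg1 was 83.1-fold lower on the second. Among the 10762 genes above the level floor in that pair it was the 4th lowest. Arg1 and Sat1 were the members called there, 2 of 5, both lower. Of all genes in that pair 6.39% differed by at least 2-fold, 1.12% as higher and 5.27% as lower. Across the arrays labelled as mock ovary and SHT uterus, both nearest to uterus, Arg1 differed by 1.22-fold.

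The summed uterine markers were higher on the arrays where Arg1 was bright than on the others. Not every marker of the list followed Arg1, and the part of these markers in its values was not tested. The 7 uterine markers had a summed intensity of 13043 on the array labelled as SHT brain against 5108 on that labelled as mock uterus. Hoxa10, a homeobox gene of the uterus, read 1163 and 324 there. The uterine sum was 32153 and 36211 on the arrays labelled as mock ovary and SHT uterus, and 4950 and 4688 on those labelled as mock brain and SHT ovary. Wnt7a, however, read 700 on the array labelled as mock brain, 654 on SHT brain and 87.8 on mock ovary. Msx1 stayed between 1135 and 1768, and Hoxa13 read 1.31 on the array labelled as SHT brain. The 5 named macrophage markers summed to 3457 and 3872 on the arrays labelled as mock brain and SHT ovary, 5301 on mock uterus, 6463 on SHT brain, 8820 on mock ovary and 13389 on SHT uterus. That list was mixed between the arrays labelled as SHT brain and mock uterus: Cd68 read 3367 and 1625, but Csf1r read 1069 and 1529, Adgre1 386 and 491, and the list's median was 1069 and 1529. Its part in the Arg1 values was not tested either.

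The summed markers of stratified epithelium, neutrophils and smooth muscle were close on the arrays labelled as SHT brain and mock uterus, unlike Arg1. The 7 markers of stratified epithelium summed to 4002 and 3711 on these arrays, against 326374 and 221570 on those labelled as mock ovary and SHT uterus. Krt5, a keratin of the basal layer, read 104 and 115 on the first pair and 36716 and 29948 on the second. The 5 neutrophil markers summed to 1552 and 1548 on the first pair and to 11706 and 67265 on the second. Members of that list went both ways on the first pair: Retnlg read 898 and 339, but S100a9 read 367 and 992. Retnlg, unlike the sum, was highest on the arrays where Arg1 was bright. The 4 named smooth muscle markers summed to 50605 and 52437 on the arrays labelled as SHT brain and mock uterus. Of these, Des read 2175 and 711 there, but Smtn read 5345 and 5824. The 7 markers of granulosa cells and oocytes summed to 43829 and 74591 on the same arrays. The part of these lists in the Arg1 values was not tested. At most 1 of the 5 hepatocyte markers was above the background on any array, and Alb, the albumin gene, stayed between 24.4 and 203. No marker of these lists was at or below 0 on any array.

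The 3 genes with the most similar pattern to Arg1 were Spink12, Sprr2f and Sfn. Likeness was the root mean square difference of log2 intensity over the 6 arrays after each gene was centred on its own mean, searched among 11688 genes above the background on at least 1 array. Spink12, of a family of secreted protease inhibitors, was nearest at 0.55. It was bright at 14628 on the array labelled as SHT brain, 10259 on mock ovary and 15948 on SHT uterus, and inside the background at 5.64 on mock brain, 5.33 on SHT ovary and 192 on mock uterus. Sprr2f, a small proline-rich protein gene of epithelia, followed at 0.58, with 39531 on the array labelled as SHT brain and 733 on that labelled as mock uterus. Sfn, an epithelial 14-3-3 protein gene, came after these at 1.0, with 13663 and 429 on the same arrays. All 3 were picked for likeness to Arg1 on these arrays, so the gap they share with it follows from that choice. The 6 arrays are few and share labels and tissue, so the likeness is a description.

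**Figure D2:**
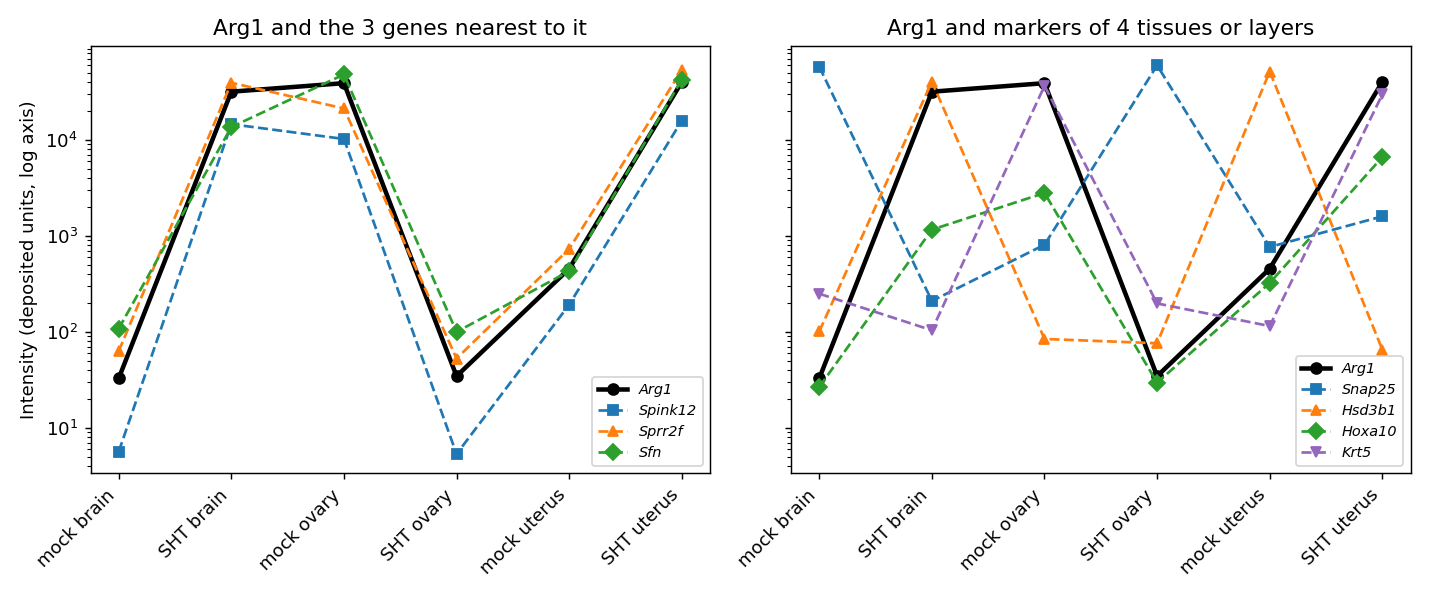
Intensity on a log axis, in deposited units, of Arg1 (black) on the 6 arrays with its 3 nearest genes (left) and with 1 marker each of neurons (Snap25), steroid-producing cells (Hsd3b1), uterus (Hoxa10) and stratified epithelium (Krt5) (right); lines join the points of a gene and carry no order. Arg1 reads 31920 on the array labelled as SHT brain, where Krt5 reads 104, and 456 on the array labelled as mock uterus, where Hsd3b1 reads 51780.

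Arg2, the mitochondrial arginase, was dim and ran differently. It read 290 on the array labelled as mock brain, 498 on SHT brain, 131 on mock ovary, 319 on SHT ovary, 724 on mock uterus and 1311 on SHT uterus. Values on the arrays labelled as mock brain, mock ovary and SHT ovary lay inside the background, so their order carries no meaning. The highest value was on the array labelled as SHT uterus. Between the 2 arrays nearest to uterus, Arg2 was at least 3.33-fold higher on the array labelled as SHT uterus than on that labelled as mock ovary. It was the 1 member of 5 called in that pair, and it passed the level floor through its bright array alone. Of all genes there 11.2% differed by at least 2-fold, 6.11% as higher and 5.07% as lower. "At least" means that the dimmer array took its background edge in place of its value. The genes nearest to Arg2 were G0s2, an inhibitor of triglyceride breakdown, at 0.31, Olfml1 at 0.41 and the kinesin gene Kif26b at 0.43. That likeness also counts the Arg2 values inside the background, which limits it. Olfml1 was above the background on 5 arrays and Kif26b on 2. G0s2, above the background on every array, had its lowest value, 690, on the array labelled as mock ovary and its highest, 5399, on that labelled as SHT uterus.

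Asl, which encodes argininosuccinate lyase, was above the background on all 6 arrays. It read 597 on the array labelled as mock brain, 1686 on SHT brain, 1240 on mock ovary, 519 on SHT ovary, 2865 on mock uterus and 1086 on SHT uterus. The arrays nearest to ovary were thus highest and those nearest to brain lowest, and the array labelled as mock brain stood barely over its background edge of 541. Its nearest genes were Angpt4 at 0.11, and Npepl1 and Iqgap3, both at 0.12. Of these, Npepl1, named as an aminopeptidase, was above the background on 4 arrays, with 887 on the array labelled as mock uterus and 174 on that labelled as SHT ovary. Angpt4 was above it on 1 array and Iqgap3 on 2.

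Oat, the mitochondrial ornithine aminotransferase, varied least. It read 9607 on the array labelled as mock brain, 17618 on SHT brain, 12527 on mock ovary, 9639 on SHT ovary, 18984 on mock uterus and 17955 on SHT uterus. The highest value was 1.98 times the lowest. The arrays nearest to brain were again lowest, with hardly any gap between them.

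Sat1 encodes the spermidine and spermine acetyltransferase that starts polyamine breakdown. Its brighter probe read 1843 on the array labelled as mock brain, 6205 on SHT brain, 6406 on mock ovary, 2035 on SHT ovary, 3070 on mock uterus and 13669 on SHT uterus. Like Arg1, it was lower on the array labelled as mock uterus than on that labelled as SHT brain, by 2.40-fold relative to the median gene. The second probe read between 65.4 and 114, inside the background on every array. Sat1 is also an older synonym of Slc26a1, a sulphate transporter gene with a probe of its own here. The annotation does not settle which gene either probe named Sat1 measures, so every Sat1 value holds for the probe and may not be that of the acetyltransferase. The genes nearest to the brighter probe were Nfatc2, a transcription factor of lymphocytes, at 0.17, Chmp1b at 0.19 and Tlr6, a receptor of innate immunity, also at 0.19. Nfatc2 read 313 and 505 on the arrays labelled as SHT brain and SHT uterus and was inside the background on the other 4. Chmp1b was above the background on 3 arrays and Tlr6 on 1, which limits that likeness.

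The order of the arrays had no spread to be set against, since no group held a second array. As a measure of how far 2 similar arrays lay apart, the central 95% of 10586 genes differed by -0.39 to 0.40 on the log2 scale between the arrays labelled as mock brain and SHT ovary. That pair was taken because it was the most correlated of the 15, so the range is narrow by that choice. The differences of Arg2, Asl, Oat and Sat1 in that pair (0.23, -0.11, 0.10 and 0.23) all lay inside that range. Those of Arg2 rest on values inside the background on both arrays. Arg1, inside the background on both arrays, was under the level floor there. Of all genes in that pair 0.113% differed by at least 2-fold (0.0378% higher and 0.0756% lower), and 0 of the 4 members above the floor did. Asl, Oat and Sat1 read lowest on these 2 arrays, as did Arg1. The same 2 arrays were the lowest for 35.8% and the highest for 28.2% of the 11689 genes above the background on at least 1 array.

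The first labelled comparison addressed the effect of SHT in brain. Arg1, Asl and Sat1 were higher on the array labelled as SHT brain than on that labelled as mock brain, and no member was at least 2-fold lower. Arg1 was at least 64.0-fold higher, Sat1 3.65-fold and Asl 3.07-fold. Oat (1.99-fold) and Arg2 (1.87-fold as read, inside the background on the array labelled as mock brain) fell just short of the 2-fold threshold. All 5 were above the level floor, which is the median of the pair means of all probes, but Arg1 passed it through its bright array alone. Thus 3 of 5 members were called, where 46.5% of 10746 genes were called in either direction, 24.7% as higher and 21.7% as lower. With arrays centred on their medians, or with values raised to the olfactory receptor median, 5 of 5 members were called. The members' median log2 difference was 1.62, against 0.08 over all genes above the floor. Since the members were chosen with these differences in view, that median is a description. These arrays were nearest to ovary and to brain, so the tissue and the treatment cannot be told apart. Folds and calls are relative to the median gene of the pair, which differed by -0.12 on the log2 scale here.

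In the pair labelled ovary the directions were mostly the opposite. Arg1 was at least 106-fold lower on the array labelled as SHT ovary than on that labelled as mock ovary, Sat1 3.44-fold lower and Asl 2.61-fold lower. Oat was 1.42-fold lower and was not called. Arg2 passed the threshold as higher, but both of its values lay inside the background, so neither a direction nor a fold is read from it. Of all 10692 genes, 46.4% were called, 23.0% as higher and 23.4% as lower, beside 4 of 5 members with Arg2 counted and 3 with values raised to the background edge. Arg1, among the members counted, passed the level floor through its bright array alone. With a level floor at the 75th percentile, or with a 3-fold threshold, 2 of 5 members were called. The members' median log2 difference, with Arg2 counted, was -1.38, against 0.01 over all genes above the floor. The median gene differed by 0.13. The arrays were nearest to brain and to uterus, so here too tissue and treatment cannot be told apart.

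In the pair labelled uterus, Arg1 and Sat1 were higher and Asl was lower on the array labelled as SHT uterus than on that labelled as mock uterus. Arg1 was 89.6-fold higher, Sat1 4.50-fold higher and Asl 2.61-fold lower. Arg2 was 1.83-fold higher and Oat 1.05-fold lower, and neither was called. With 3 of 5 members called, the share over all 10765 genes was 21.4%, with 13.1% higher and 8.26% lower. The members' median log2 difference was 0.87, against 0.05 over all genes above the floor. The median gene differed by -0.02. The arrays were nearest to uterus and to ovary, so in this pair too tissue and treatment cannot be told apart.

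**Figure D3:**
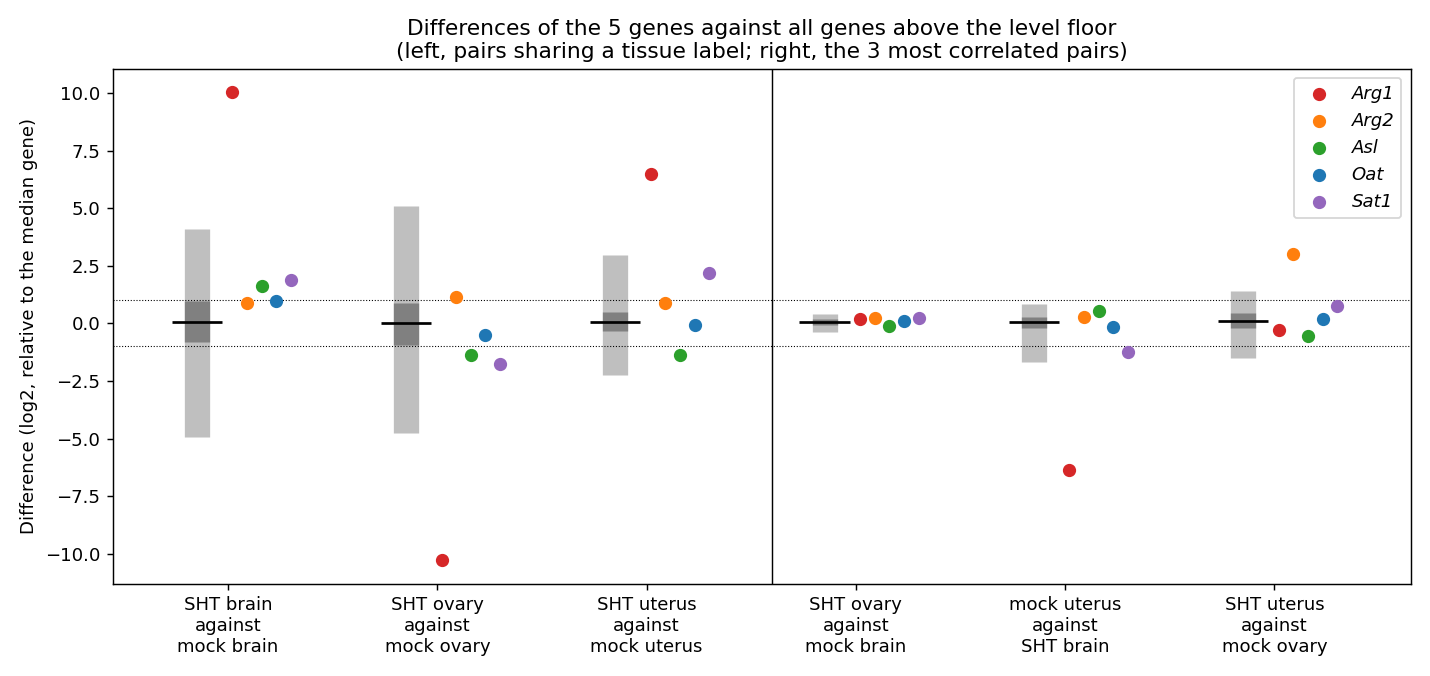
Log2 differences of the 5 genes (coloured points) relative to the median gene, in the 3 pairs of arrays that share a tissue label (left) and in the 3 most correlated pairs (right), against all genes above the level floor: light grey, central 95%; dark grey, central 50%; black line, median; dotted lines, 2-fold. Arg1 lies at 10.04, -10.27 and 6.48 in the labelled pairs (the first and second against an array inside the background, where the bounds are 64.0-fold and 106-fold) and at -6.38 between the arrays labelled as mock uterus and SHT brain; in the pair of SHT ovary and mock brain all 5 points lie near 0.

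The surrounding pathways were described from a list of 63 genes, of which 49 had a named probe and 42 were above the background on at least 1 array. For the brain labels 11 were higher and 11 lower of 41 above the floor, a share of 53.7% beside 46.5% of all genes. For the ovary labels 10 were higher and 8 lower of 39, or 46.2% beside 46.4%. For the uterus labels 4 were higher and 3 lower of 40, or 17.5% beside 21.4%. These shares lay near the background and are not read as a result about the pathways. In the 3 most alike pairs, 0 of 37 were called between the arrays labelled as SHT ovary and mock brain, beside 0.113% of all genes. Between mock uterus and SHT brain 1 of 39 (Gamt) was called, or 2.56% beside 6.39%. Between SHT uterus and mock ovary 4 of 38 were called, or 10.5% beside 11.2%. No result about the pathways is read from these shares either. The genes named below were up to 3 with the widest range over the arrays in each role. Cps1, Otc, Mtap, Srm and Oaz1 were added after their values were seen.

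Genes next to arginase in arginine supply and use differed in direction. Slc7a3, a carrier of arginine and lysine, read 1210 and 1057 on the arrays labelled as mock brain and SHT ovary and between 81.1 and 146, inside the background, on the others. Slc7a7, a carrier that exports cationic amino acids, read 56.3 and 58.4 on those 2 arrays and 377 to 868 on the others. Gamt, which completes creatine synthesis, was highest on the array labelled as mock uterus at 4583, followed by 1518 on SHT brain, 710 on SHT ovary and 671 on mock brain, with 308 and 278 on SHT uterus and mock ovary. Between the uterus labels Gamt was thus at least 14.2-fold lower on the array labelled as SHT uterus, opposite to Arg1. That array was nearest to uterus and the mock one to ovary, so tissue and treatment cannot be told apart. The urea cycle genes Cps1 and Otc stayed inside the background on every array, at 47.2 or less and 11.3 or less.

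The polyamine genes with the widest range, Sms, Azin1 and Eif5a2, shared a pattern that Mtap, Srm and Oaz1, picked after their values were seen, did not follow. Sms, spermine synthase, read 3116 on the array labelled as mock brain and 2766 on SHT ovary, and 298 to 455 on the others. Azin1, an inhibitor of the antizymes that restrain ornithine decarboxylase, read 1429 and 1365 there, and 168 to 366 elsewhere. Eif5a2, a translation factor that carries a residue made from spermidine, read 1648 and 1687 there, and 161 to 477 elsewhere. Mtap, which salvages the methylthioadenosine left by polyamine synthesis, ran the other way, with 769 and 712 there and 1810 to 3449 elsewhere, and Sat1 also had its lowest values on those 2 arrays. Srm, spermidine synthase, varied little, from 3222 to 5565, and Oaz1, an antizyme, from 16686 to 23011.

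The enzymes that clear methylated arginine, which inhibits nitric oxide synthases, had opposite patterns. Ddah1 read 2260 and 2015 on the arrays labelled as mock brain and SHT ovary and 152 to 363 on the others, while Ddah2 read 1968 and 2359 there and 6134 to 8479 on the others. Prmt1, which methylates arginine in proteins, read from 5299 to 12652, highest on the array labelled as mock uterus. Downstream of nitric oxide, Pde5a, which breaks down cyclic GMP, was lowest on the arrays labelled as SHT ovary and mock brain, at 681 and 841. It read 1663 on SHT brain, 3264 on mock ovary and 3783 on mock uterus, and was highest at 11877 on SHT uterus. It was 3.17-fold higher on the array labelled as SHT uterus than on that labelled as mock uterus. Those arrays were nearest to uterus and to ovary, so tissue and treatment cannot be told apart. The kinase gene Prkg2, a target of cyclic GMP, was above the background on the arrays labelled as mock brain and SHT ovary alone, at 709 and 744.

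Gch1 makes the first step to tetrahydrobiopterin, a cofactor of nitric oxide synthases. Its brighter probe read 145 on the array labelled as mock brain, 3737 on SHT brain, 408 on mock ovary, 148 on SHT ovary, 4047 on mock uterus and 1231 on SHT uterus. The arrays nearest to ovary were thus highest, and unlike Arg1 the gene differed by 1.10-fold between them. Its regulator Gchfr read 260 to 1192, highest on the array labelled as mock uterus. Qdpr, which regenerates the cofactor, read 4000 on the arrays labelled as mock brain and SHT ovary and 1018 on that labelled as mock ovary. In the proline and glutamate branch beyond Oat, Glul, glutamine synthetase, read 26422 and 30448 on the arrays labelled as mock brain and SHT ovary and 4707 to 12770 on the others. Prodh, which breaks down proline, read 1538 and 1287 there and 598 to 1004 elsewhere. Aldh18a1, which starts proline synthesis from glutamate, ran opposite, with 191 and 155 there, inside the background, and 549 to 910 elsewhere.

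**Figure D4:**
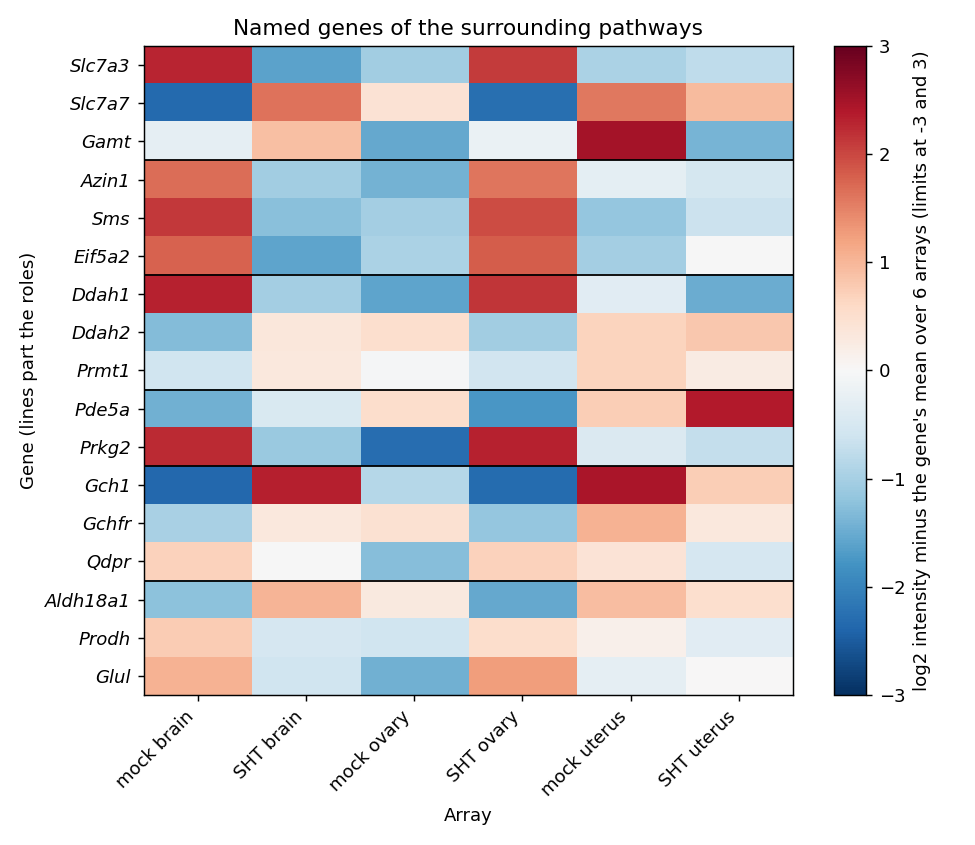
Log2 intensity minus each gene's mean over the 6 arrays (colour, limits at -3 and 3) for the 17 genes named by widest range from the surrounding pathways (rows, in the order of the roles described) on the 6 arrays (columns). Slc7a3, Sms, Azin1, Eif5a2, Ddah1, Prkg2 and Glul are highest on the arrays labelled as mock brain and SHT ovary, and Gch1 on those labelled as SHT brain and mock uterus.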

How the data were processed

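RNA was labelled with Cy5, 1 sample per array, per the labels' protocols. The deposited values are linear intensity, with 26423 probes for every array. Limma is named, without version or role, per the submitters' processing notes. No background correction, scaling or probe filter is given in the labels.

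Of the probes, 20377 carried 1 gene symbol, brought up to date with RefSeq (mouse assembly GRCm38.p6; 18213 current symbols, 2126 synonyms, 38 kept as given), and 6046 carried none. Positions are not given, since no source used here gives the build behind the probes. Values were raised to the 5th percentile of each array's positive values and put on the log2 scale with Python 3.11.15 and pandas 2.3.3. A gene took its probe with the highest mean. Genes were called at a 2-fold difference, relative to the pair's median gene, with a pair mean above the median of all probes. The calling was tested on simulated data with known folds, planted in bright genes only and larger than the threshold. That test does not cover dim genes or folds near the threshold. Groups of 1 array allowed neither a test nor a p-value.

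Every probe of each member was described. From the pathway list, up to 3 genes per role with the widest range were named, among those above the background on at least 1 array, and for each member with a 4-fold range the 3 nearest genes. Creatine genes were counted with urea cycle and transport. Cps1, Otc, Srm, Oaz1, Mtap and the genes quoted from marker lists were chosen after their values were seen. The members and lists were chosen with earlier results of these data known. Alternatives were other scalings, floors, thresholds and the mean of a gene's probes.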

Additional observations from a re-analysis of the deposited data

Results flagged for a closer look

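The direction of the SHT label differed between labelled tissues for Arg1, Asl and Sat1, with each pair made of 1 array per side. The difference between tissues was not tested. Arg1 had log2 differences of 10.04 in the pair labelled brain, -10.27 in that labelled ovary and 6.48 in that labelled uterus. The first 2 rest on values inside the background on the dimmer array. Sat1 had 1.87, -1.78 and 2.17 in the same order. Asl had 1.62, -1.38 and -1.38. The arrays of each pair were nearest to 2 different tissues by their markers, as given in the report.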

How the results depend on the processing

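No member's difference changed sign where it was called. The 15 member differences were recomputed under 6 alternatives each, and 83 of the 90 values stayed within 1.5-fold of the main one. The 7 others were Sat1 with the mean of its 2 probes (1.14, -1.19 and 1.17 on the log2 scale in the pairs labelled brain, ovary and uterus) and Arg1 and Arg2 in the first 2 pairs with values raised to the background edge, an alternative added after the data were seen. The members called in the pair labelled brain went from 3 to 5 with arrays centred on their medians and with values raised to the olfactory receptor median. In the pair labelled ovary they went from 4 to 2 with a level floor at the 75th percentile and with a 3-fold threshold. For all genes, that floor gave 2450, 2460 and 901 calls in the 3 pairs, against 4992, 4962 and 2300. The 3-fold threshold gave 3105, 3304 and 1289, and no floor gave 3710 in the pair labelled uterus. For pathway genes, the higher floor gave 10, 10 and 3 calls against 22, 18 and 7, the 3-fold threshold 10 in the pair labelled brain and 4 in that labelled uterus, and no floor 11 in that labelled uterus. Fewer or more genes tested, or a stricter fold, account for these by construction; for the scalings the cause was not tested. Signal over background limits Arg2, which lay inside the background on 3 arrays, and the size of the Arg1 differences. No paired analysis was possible because each group held 1 array.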

Other observations

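Several pathway genes had more than 1 probe, and these were picked out after their values were seen. Smox, spermine oxidase, read 5748 on the array labelled as SHT uterus with its brighter probe and 1687 to 2868 on the others. Its second probe read 1232 on the array labelled as SHT uterus and 658 on that labelled as mock ovary, and was inside the background on mock brain, SHT ovary and mock uterus. The 3 probes of Eif5a all read lowest on the arrays labelled as mock brain and SHT ovary, with 22782 and 22162 for the brightest and 35255 to 37335 on the other arrays. The second probe of Gch1 read 799 and 1195 on the arrays labelled as SHT brain and mock uterus and at most 440 elsewhere, so both probes were highest on the same 2 arrays. The second probe of Pde5a, at 30.8 to 86.2, stayed inside the background on every array.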
